A study of Rattus norvegicus with 6 samples.

Results

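The 9 genes described here encode parts of the tight and adherens junctions that hold neighbouring cells together. They were Tjp1, Ocln, Cldn5, Cldn14, Cdh2, Cdh5, Vcl, Ctnna1 and Ctnnb1, chosen by gene symbol among the 30560 genes counted in a single-nucleus RNA sequencing dataset of the rat brain after ischemic stroke. Of these, 7 matched a symbol in the deposited counts. Ocln and Cldn5 matched none and were not analysed here.

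Nuclei came from male wild-type Wistar rats, 12 weeks old, 48 h after Sham operation or permanent middle cerebral artery occlusion (MCAO), which closes a large artery that supplies one hemisphere. The library Sham L held the left hemispheres of 4 Sham rats and Sham R their right hemispheres. Moderate infarctions (mMCAO) were represented by 3 rats, whose hemispheres on the side of the lesion were pooled as ipsi and those opposite to it as contra. Severe infarctions (sMCAO) were represented by 4 rats pooled in the same way. The 6 libraries thus made 3 groups of 2 each, which were named Sham, MCAO contra and MCAO ipsi. The Sham libraries share their rats, and within both MCAO groups severity differed. The p-values thus measure only the spread between these libraries and not the spread between animals. For Sham this is the spread between hemispheres of the same rats.

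Between 8665 and 14491 nuclei per library passed the limits on nuclei, with a median of 2059 to 3360 unique molecular identifiers (UMIs, each one counted RNA molecule) per nucleus. Any 2 libraries shared 118 to 280 cell barcodes, at most 2.16% of the smaller library. Nuclei were assigned to cell classes with lists of marker genes that hold none of the junction genes. Endothelial nuclei were few, with 34 and 26 in the Sham libraries, 64 (moderate) and 23 (severe) in MCAO contra, and 66 (moderate) and 253 (severe) in MCAO ipsi. Where a pair of values is given for a group below, Sham L or the moderate library comes first. Astrocytes numbered 108 to 530 per library, oligodendrocytes 349 to 1844 and oligodendrocyte precursor cells (OPCs) 228 to 592. Fibroblasts numbered 11 in each Sham library, 75 and 61 in MCAO contra, and 127 and 197 in MCAO ipsi. Endothelial nuclei held 15234 to 18993 CPM (the UMIs of a gene or list as a share of all UMIs of the class in a library, scaled to a fixed total) over their 14 endothelial markers, and none of those markers was at 0 in every library.

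Tight junctions seal the space between cells, and in brain endothelium they form the core of the blood-brain barrier. Their strands are built from claudins and occludin, which the scaffold protein ZO-1, the product of Tjp1, links to the actin cytoskeleton. Adherens junctions are built from cadherins, whose intracellular ends bind beta-catenin (Ctnnb1), which binds alpha-catenin (Ctnna1), and alpha-catenin under tension recruits vinculin (Vcl). Endothelium uses VE-cadherin (Cdh5), whereas astrocytes and neurons use N-cadherin (Cdh2). Claudins are also made by oligodendrocytes, in which claudin 11 seals the layers of myelin. Vinculin and beta-catenin have further roles, in focal adhesions and in Wnt signalling.

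Each junction gene had its own order of levels over the cell classes, given here as the median CPM over the libraries with at least 20 nuclei of a class. Levels are compared within a gene only, since CPM is not corrected for gene length. Tjp1 was highest in endothelium at a median of 1615 CPM (range 1106 to 1783, n = 6 libraries). Astrocytes followed at 807 (673 to 1935), then mural cells at 767, oligodendrocytes at 760, fibroblasts at 732, neurons at 455, OPCs at 380 and myeloid cells at 157. The ranges of endothelium and astrocytes overlapped. In both ipsilateral libraries astrocytes lay above endothelium, at 1935 beside 1646 CPM in mMCAO ipsi and 1308 beside 1106 in sMCAO ipsi. The ranges of the classes from astrocytes to fibroblasts overlapped too, so the order among these was not resolved. Mural values rest on the 2 ipsilateral libraries.

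Cdh2 and Vcl had their highest medians in astrocytes. The median of Cdh2 was 494 CPM in astrocytes (316 to 1068), 357 in ependymal cells (136 to 373), 357 in neurons (324 to 369) and 334 in OPCs (309 to 572), and these ranges overlapped. The median of Vcl was 478 CPM in astrocytes (234 to 951), 436 in mural cells, 310 in endothelium (214 to 493) and 222 in fibroblasts, whereas it was 39.9 in oligodendrocytes (24.1 to 70.0), below every astrocyte library. The Vcl ranges of mural cells, endothelium and fibroblasts each overlapped with that of astrocytes. In Sham R endothelium held 374 CPM of Vcl beside 234 in astrocytes. The catenins Ctnna1 and Ctnnb1 were highest in endothelium, with medians of 383 CPM (266 to 613) and 230 CPM (75.9 to 294), in ranges that overlapped with those of mural cells, myeloid cells and fibroblasts.

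Cdh5 was highest in endothelium at a median of 279 CPM (190 to 374). It followed in mural nuclei at a median of 141 (74.3 to 208) and in fibroblasts at 102 (59.8 to 206), in ranges that overlapped with that of endothelium. Mural nuclei also held endothelial markers, at 7672 CPM in mMCAO ipsi and 2675 in sMCAO ipsi. The median of Cdh5 was 3.48 in myeloid cells and 0 in astrocytes and OPCs. Cldn14 had its highest median in oligodendrocytes, at 35.9 CPM (14.4 to 89.7). OPCs followed at 2.19. Ependymal nuclei had a median of 0 but held 36.4 CPM (2 UMIs) in mMCAO ipsi and 63.1 CPM (11 UMIs) in sMCAO ipsi. No Cldn14 UMI was found in endothelial, mural or fibroblast nuclei, and neurons held 0.212 to 0.636 CPM. In the largest endothelial library, sMCAO ipsi, 0 UMIs allowed a level of up to 7.17 CPM, taken as 3 counts.

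**Figure D1:**
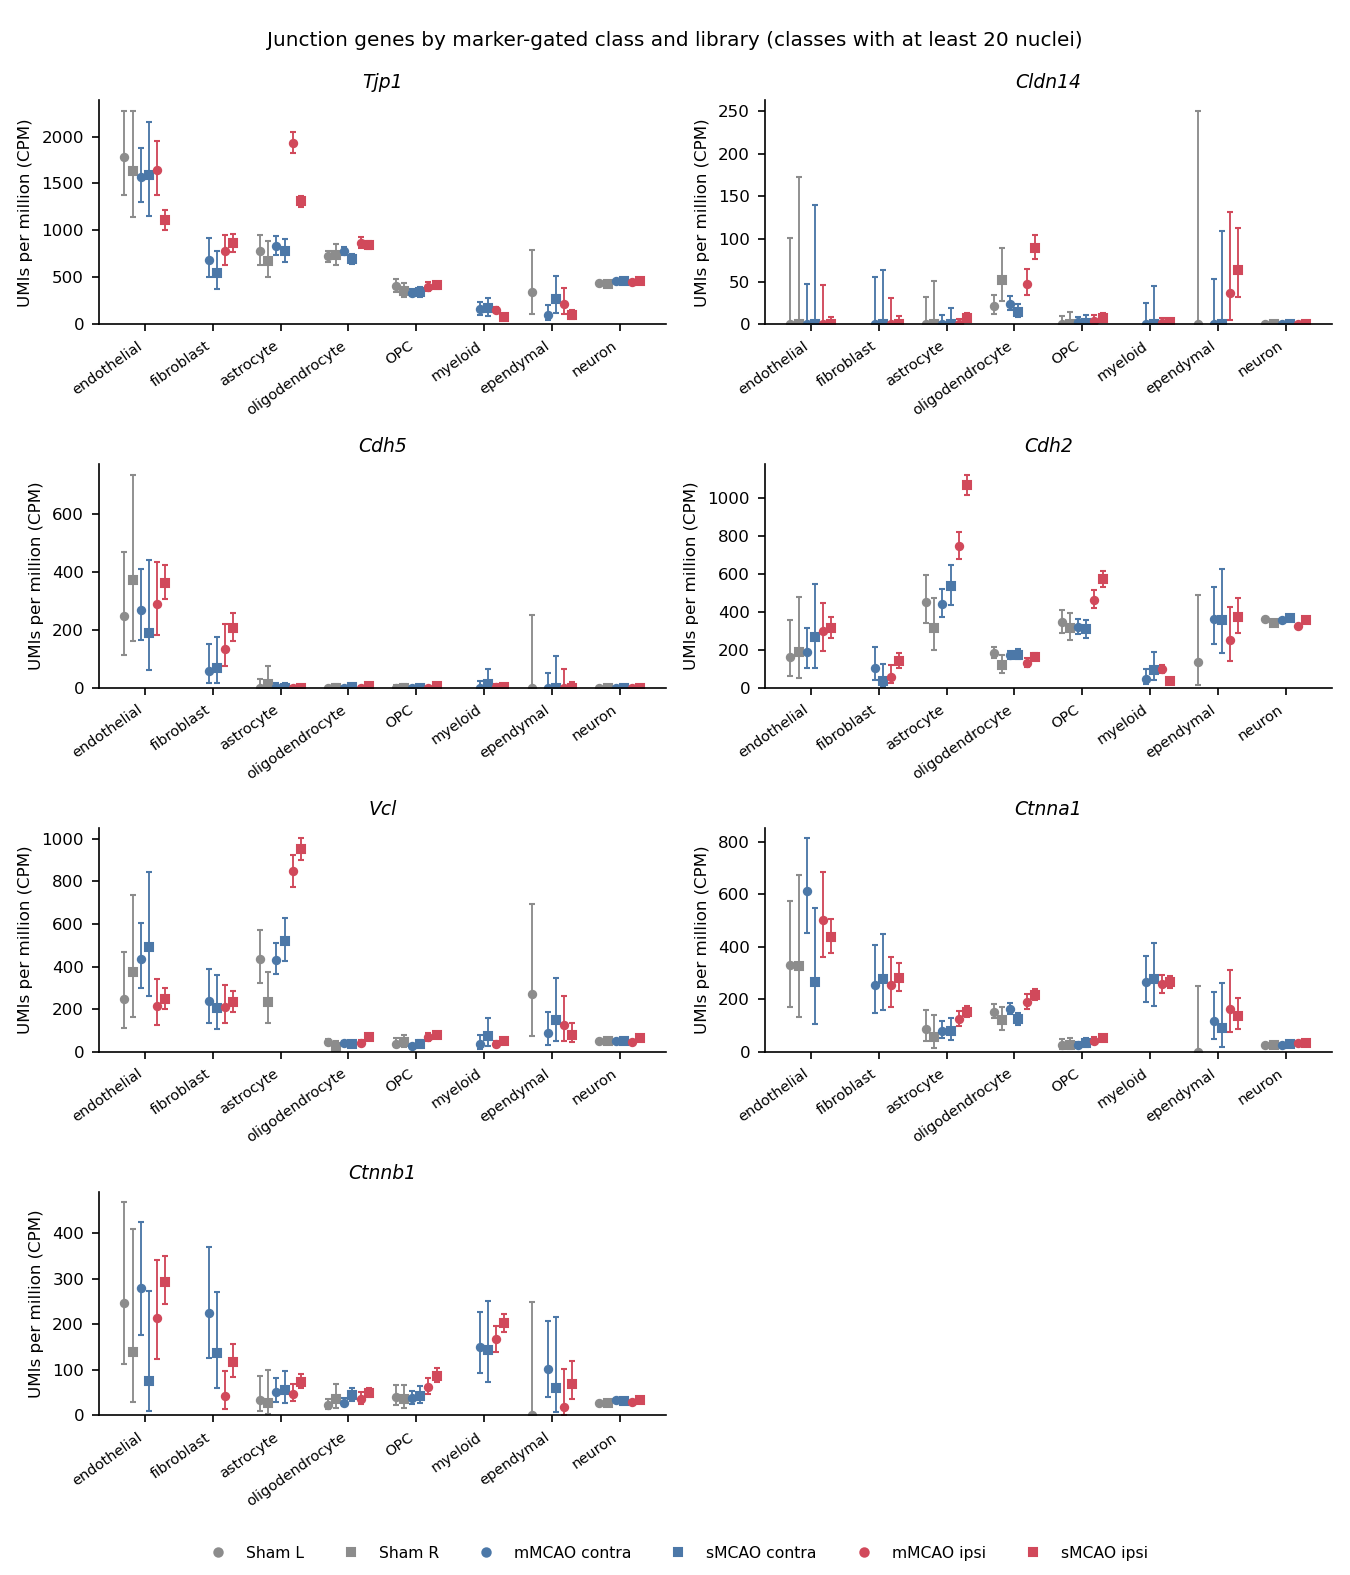
Levels of the 7 measured junction genes in CPM (vertical axes) by cell class, with 1 point per library of at least 20 nuclei (grey Sham, blue MCAO contra, red MCAO ipsi, with circles for Sham L or moderate and squares for Sham R or severe) and exact 95% Poisson intervals as bars. By the median over libraries, Tjp1 and Cdh5 were highest in endothelium, Cdh2 and Vcl in astrocytes, and Cldn14 in oligodendrocytes. In both ipsilateral libraries astrocyte Tjp1 lay above endothelial Tjp1.

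Tjp1, Cdh2 and Vcl, which encode a scaffold, a cadherin and an actin anchor, rose together in astrocytes of the injured hemisphere. They were higher in MCAO ipsi than in Sham and than in MCAO contra, by 1.81-fold to 2.52-fold, and each was higher in both ipsilateral libraries than in every other library. Ctnna1 was higher in both ipsilateral libraries too without passing the test. The values below are sums over all astrocyte nuclei of a library, so more nuclei in a state with a high level and more RNA per nucleus cannot be told apart in them.

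Astrocytes held 778 and 673 CPM of Tjp1 in Sham, 836 and 775 in MCAO contra, and 1935 and 1308 in MCAO ipsi. The ipsilateral values did not overlap with the others, and the moderate library was the higher of the 2. The log2 fold change over Sham was 1.12 ± 0.23 (SE, n = 2 libraries per group), which is 2.17-fold, with an adjusted p of 0.00727 in edgeR's quasi-likelihood test. Against MCAO contra it was 0.96 ± 0.22 (adjusted p = 0.0101). Both comparisons share the ipsilateral libraries and are not independent of each other.

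Astrocyte Vcl stood at 436 and 234 CPM in Sham, 432 and 520 in MCAO contra, and 848 and 951 in MCAO ipsi. The Sham libraries, hemispheres of the same rats, differed from each other by a ratio of 0.536 (95% Poisson interval 0.290 to 0.943, counting error only). The log2 fold change of Vcl was 1.33 ± 0.25 over Sham (adjusted p = 0.00436) and 0.88 ± 0.22 over MCAO contra (adjusted p = 0.0163). When the estimated free RNA was subtracted, the second value was 0.75 with an adjusted p of 0.0564 and was no longer called.

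Cdh2, the cadherin of astrocytes, stood at 453 and 316 CPM in Sham, 444 and 535 in MCAO contra, and 748 and 1068 in MCAO ipsi. Here the severe library was the higher of the 2, unlike for Tjp1. The log2 fold change was 1.17 ± 0.25 over Sham (adjusted p = 0.00785) and 0.86 ± 0.22 over MCAO contra (adjusted p = 0.0192). DESeq2 gave an adjusted p of 0.0804 for the second comparison.

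Of the 7 measured genes, 5 passed the filter on low counts in astrocytes, and 3 of these 5 were called higher in MCAO ipsi than in Sham, where 6.86% of the 5820 genes tested were called higher, 6.36% lower and 13.2% in either direction. Against MCAO contra the same 3 genes were called, where 7.13% of all genes were called higher, 5.19% lower and 12.3% in either direction. Calls required an adjusted p below 0.05 together with a log2 fold change of 0.6 or more in either direction. Ctnna1 had log2 fold changes of 0.89 ± 0.35 (adjusted p = 0.121) and 0.76 ± 0.27 (adjusted p = 0.0774), and Ctnnb1 of 0.97 ± 0.54 (adjusted p = 0.281) and 0.21 ± 0.34 (adjusted p = 0.763). Cldn14 and Cdh5 did not pass the filter. The median log2 fold change of the 5 genes over Sham was 1.12, beside 0.03 for all genes. The study itself reported Tjp1, Vcl and Cdh2 as higher in reactive astrocytes of these samples. Neither the count of calls nor this median is thus independent evidence about junction genes. Between MCAO contra and Sham, edgeR called 0 of the 5 genes and 0% of all genes, with 0 of the 5 and 482 of all genes at an unadjusted p under 0.05, and DESeq2 called 0 of the 5.

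The calls depended on single control libraries. Without Sham L only Vcl was called over Sham (log2 fold change 1.96, adjusted p = 0.0299), with Tjp1 at 1.28 (adjusted p = 0.104) and Cdh2 at 1.54 (adjusted p = 0.0750). Without Sham R none was called, with Tjp1 at an adjusted p of 0.109, Cdh2 at 0.95 (adjusted p = 0.116) and Vcl at 0.99 (adjusted p = 0.0694). Over MCAO contra, none was called without either contralateral library, with adjusted p-values of 0.0866 to 0.243. Leaving out mMCAO ipsi or sMCAO ipsi kept all 3 calls in both comparisons, and without mMCAO ipsi Ctnna1 was called over MCAO contra as well (0.89, adjusted p = 0.0142). In these fits the lone ipsilateral library is assumed to vary like the other groups. Without mMCAO ipsi the log2 fold change of Tjp1 over Sham was 0.82, and without sMCAO ipsi it was 1.42.

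Other signals in the astrocyte sums moved with the groups. The summed level of the 8 neuron markers, RNA that astrocytes should lack, was 2215 and 2144 CPM in Sham, 1379 and 1585 in MCAO contra, and 1002 and 499 in MCAO ipsi, with 6 to 8 of the 8 markers detected in each library. The share of UMIs estimated to be free RNA was computed from these same markers, so it is not a separate signal. It ran from 29.8% in Sham L to 8.98% in sMCAO ipsi. With this share subtracted, the log2 fold changes over Sham were 1.12 for Tjp1 (adjusted p = 0.0203), 1.28 for Cdh2 (adjusted p = 0.0182) and 1.14 for Vcl (adjusted p = 0.0246), and all 3 stayed called. The 14 endothelial markers summed to 25.7 and 96.2 CPM in Sham, 42.5 and 45.0 in MCAO contra and 49.3 and 34.5 in MCAO ipsi. The 14 myeloid markers summed to 25.7 and 27.5 CPM in Sham and 71.4 and 101 in MCAO ipsi, and the part of either list in the result was not tested.

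Depth also moved with the groups, with a median of 754 and 617.5 UMIs per astrocyte in Sham and 1353 and 2333.5 in MCAO ipsi. Tjp1 was seen in 44.8% and 33.3% of Sham astrocytes and in 72.8% and 70.0% of ipsilateral astrocytes. After thinning every nucleus to 500 UMIs these shares were 34.5% and 29.6% in Sham, 31.6% and 29.3% in MCAO contra, and 50.6% and 33.4% in MCAO ipsi. The thinned share of the severe library thus lay within the range of the other libraries although its CPM lay above them, and no order was read from it. The highest count in a single astrocyte was 58 Tjp1 UMIs in sMCAO ipsi and 38 in mMCAO ipsi, against 4 to 7 in the other libraries.

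**Figure D2:**
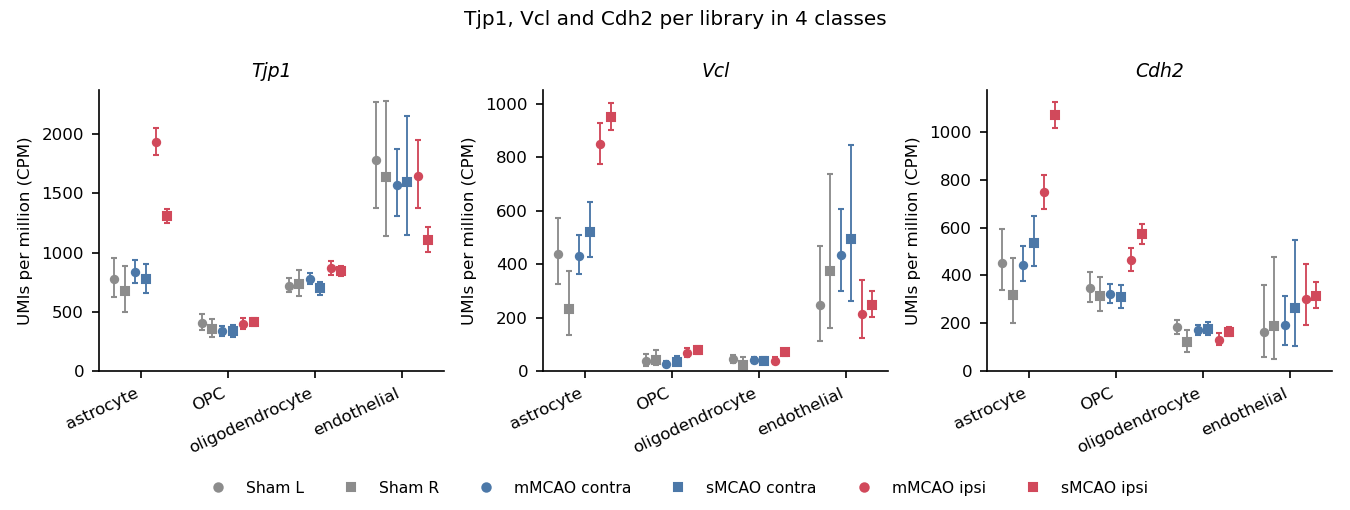
Levels of Tjp1, Vcl and Cdh2 in CPM in each of the 6 libraries, by cell class, with exact 95% Poisson intervals as bars (counting error only). In astrocytes both ipsilateral libraries lay above the other 4 for each gene, whereas endothelial Tjp1 was lowest in sMCAO ipsi.

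Over Sham, the astrocyte changes of Tjp1, Cdh2 and Vcl were also called among nuclei gated as homeostatic, whereas over MCAO contra only that of Tjp1 was. Astrocytes were divided by a list of reactive genes, among them Cd44, Vim and Osmr, and a list of homeostatic genes, among them Slc7a10 and Gpc5. Both lists hold genes that the study chose on these same samples. The states are ranges on a scale of marker share rather than types. Nuclei gated as homeostatic could still hold UMIs of the reactive list below its cut of 20 per 10000 UMIs. Their median depth was 754 and 618 UMIs in Sham and 1317 and 2058 in MCAO ipsi, so more such UMIs fit under the cut in MCAO ipsi. Reactive nuclei numbered 2 and 3 in Sham, 17 and 20 in MCAO contra, and 113 and 269 in MCAO ipsi.

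Among homeostatic astrocytes alone, Tjp1 was 799 and 704 CPM in Sham, 856 and 795 in MCAO contra, and 1914 and 1087 in MCAO ipsi. The log2 fold changes over Sham were 0.999 ± 0.24 for Tjp1 (adjusted p = 0.00983), 1.01 ± 0.25 for Vcl (adjusted p = 0.0128) and 0.84 ± 0.23 for Cdh2 (adjusted p = 0.0216). These 3 of the 5 tested genes were called, beside 8.88% of the 5250 genes tested. Over MCAO contra only Tjp1 was called (0.85 ± 0.22, adjusted p = 0.0186), beside 6.95% of all genes. Cdh2 and Vcl had 0.54 ± 0.20 (adjusted p = 0.105) and 0.54 ± 0.21 (adjusted p = 0.146) in that comparison. No alternatives and no fits without single libraries were run for homeostatic astrocytes alone.

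Reactive and homeostatic astrocytes were compared within the 3 libraries that held at least 20 nuclei of each, sMCAO contra, mMCAO ipsi and sMCAO ipsi. Vcl was 1306 CPM in reactive and 647 in homeostatic nuclei of mMCAO ipsi, 1051 and 718 in sMCAO ipsi, and 575 and 542 in sMCAO contra. The reactive to homeostatic ratio of Vcl was 2.02 (1.68 to 2.43) in mMCAO ipsi, 1.46 (1.29 to 1.66) in sMCAO ipsi and 1.06 (0.511 to 1.99) in sMCAO contra. For Cdh2 this ratio was 1.15 (0.935 to 1.42) in mMCAO ipsi, 1.74 (1.54 to 1.96) in sMCAO ipsi and 0.739 (0.310 to 1.52) in sMCAO contra. For Tjp1 it was 1.11 (0.981 to 1.26), 1.33 (1.20 to 1.48) and 0.723 (0.352 to 1.34) in the same libraries. The reactive nuclei of sMCAO contra held 8 Cdh2 and 11 Tjp1 UMIs.

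With library as a block, edgeR called 0 of the 5 genes between the states, beside 9.85% of the 5319 genes tested (5.06% higher and 4.79% lower), of which 1100 were at an unadjusted p under 0.05. Vcl and Ctnna1 were at an unadjusted p under 0.05, and DESeq2 called 0 of the 5. The log2 fold change was 0.58 ± 0.21 for Vcl (adjusted p = 0.0831) and 0.08 ± 0.21 for Tjp1 (adjusted p = 0.891). Without sMCAO contra, the library with 20 reactive nuclei, Vcl was called at 0.69 (adjusted p = 0.0102), and it was called with the stricter and the looser limits on the states too (0.72 and 0.71, adjusted p = 0.0294 and 0.0138). Median depth was 1445 UMIs in reactive and 1317 in homeostatic nuclei of mMCAO ipsi, and 2639 and 2058 in sMCAO ipsi.

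The 250 bases before the transcription start of Tjp1 and Vcl, the astrocyte genes for which a promoter was given, are shown to compare their base composition and motifs. They were taken from RefSeq on the rat build GRCr8 and are written 5′ to 3′ on the strand of the gene, with matches to motifs in capitals. The promoter of Tjp1 covers chr1:128325361-128325610 on the minus strand, and that of Vcl chr15:3404801-3405050 on the minus strand.
Tjp1: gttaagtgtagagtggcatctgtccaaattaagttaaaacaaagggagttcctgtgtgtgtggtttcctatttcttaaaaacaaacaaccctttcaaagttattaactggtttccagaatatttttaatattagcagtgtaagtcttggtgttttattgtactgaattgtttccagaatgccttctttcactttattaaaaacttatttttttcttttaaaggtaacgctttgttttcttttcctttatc
Vcl: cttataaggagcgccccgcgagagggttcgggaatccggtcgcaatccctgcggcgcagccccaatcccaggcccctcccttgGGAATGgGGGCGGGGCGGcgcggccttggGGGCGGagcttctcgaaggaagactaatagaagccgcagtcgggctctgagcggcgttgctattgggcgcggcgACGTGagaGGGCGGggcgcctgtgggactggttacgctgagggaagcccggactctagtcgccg
The windows held 30.4% G and C for Tjp1 and 68.4% for Vcl. Both strands were searched for TTCNNNGAA (the STAT motif), TGANTCA (AP-1), GGAATG (TEAD), ACGTG (hypoxia response) and GGGCGG (SP1). Tjp1 held none of them. Vcl held GGAATG at -167 to -162, ACGTG at -64 to -60 and GGGCGG at 4 places, of which the first 2 overlap by 1 base. Among 27457 promoters of the same length, 7.52% held the STAT motif, 6.36% the AP-1 motif, 11.8% the TEAD motif, 16.9% the hypoxia response motif and 32.4% the SP1 motif. A match is a description of letters and not a bound site. Cdh2, Cdh5 and Ctnna1 had no promoter in the tables.

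The endothelial levels of the junction genes did not pass the test in any comparison, and the nuclei were few. Endothelial Tjp1 was 1783 and 1636 CPM in Sham, 1570 and 1594 in MCAO contra, and 1646 and 1106 in MCAO ipsi. The severe ipsilateral library, which held the most endothelial nuclei, was the lowest. Its level was 0.672 times that of mMCAO ipsi (0.552 to 0.822, counting error only), while the contralateral libraries had a ratio of 1.02 (0.697 to 1.45). The log2 fold change of MCAO ipsi was -0.31 ± 0.34 over Sham (adjusted p = 0.744) and -0.14 ± 0.33 over MCAO contra (adjusted p = 0.940).

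The 8 mural markers in endothelial nuclei summed to 1536 to 2145 CPM in the other 5 libraries and to 528 CPM in sMCAO ipsi, where all 8 were detected. Their part in the lower Tjp1 of that library was not tested. Tjp1 in mural nuclei themselves was 910 CPM in mMCAO ipsi and 624 in sMCAO ipsi, with a ratio of 0.686 (0.427 to 1.11), although mural nuclei also held 7672 and 2675 CPM of endothelial markers in those libraries.

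Endothelial Cdh5, the endothelial cadherin, was 247 and 374 CPM in Sham, 268 and 190 in MCAO contra, and 289 and 363 in MCAO ipsi, from 5 to 152 UMIs per library. These ranges overlapped, and the log2 fold change was 0.20 ± 0.42 over Sham (adjusted p = 0.888) and 0.55 ± 0.39 over MCAO contra (adjusted p = 0.654). Endothelial Vcl was 247 and 374 CPM in Sham, 434 and 493 in MCAO contra, and 214 and 246 in MCAO ipsi. Its log2 fold change over MCAO contra was -0.87 ± 0.36 (adjusted p = 0.355), with both ipsilateral libraries below both contralateral libraries. Cdh2 was 165 and 187 CPM in Sham, 192 and 266 in MCAO contra, and 301 and 315 in MCAO ipsi, with a log2 fold change over Sham of 0.87 ± 0.45 (adjusted p = 0.324). The log2 fold changes of Ctnna1 and Ctnnb1 over Sham were 0.53 ± 0.43 (adjusted p = 0.601) and 0.41 ± 0.53 (adjusted p = 0.791).

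Of the 7 measured genes, 6 passed the filter in endothelium. edgeR and DESeq2 called 0 of the 6 in each of the 3 comparisons. Of the 1829 genes tested, edgeR called 2.13% (0.711% higher and 1.42% lower) for MCAO ipsi over Sham and 0% in the other 2 comparisons. At an unadjusted p under 0.05 there were 0 of the 6 and 340 of all genes over Sham, 1 of the 6 (Vcl) and 205 of all genes over MCAO contra, and 0 of the 6 and 76 of all genes between MCAO contra and Sham.

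The difference in the response of Vcl between cell classes was itself tested in one fit over both classes, for which no alternatives were run. From MCAO contra to MCAO ipsi, endothelial Vcl changed by 1.82 less than astrocyte Vcl on the log2 scale (difference -1.82 ± 0.47, adjusted p = 0.00788). The contralateral endothelial sums held 34 and 13 Vcl UMIs. From Sham to MCAO ipsi the Vcl difference was -1.75 ± 0.59 (adjusted p = 0.0937) and was not called. For Tjp1 the difference between endothelium and astrocytes from Sham to MCAO ipsi was -1.49 ± 0.49 (adjusted p = 0.0875) and was not called.

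**Figure D3:**
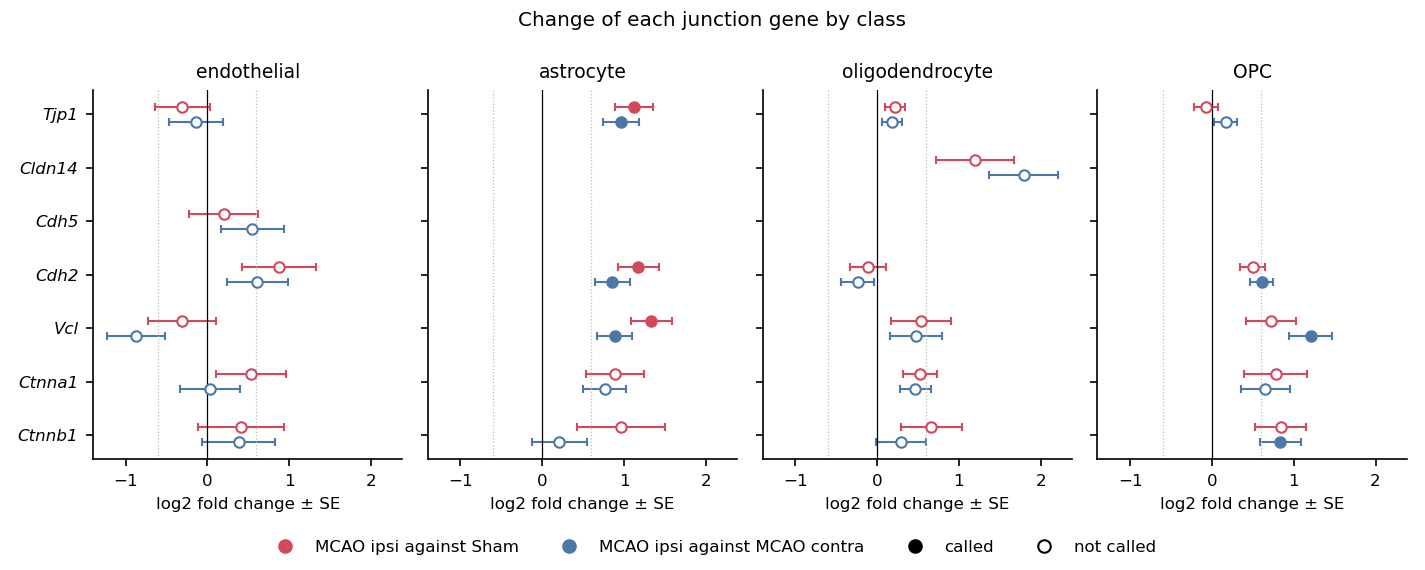
Log2 fold changes with standard errors of the junction genes in 4 cell classes, for MCAO ipsi over Sham and over MCAO contra, with filled points for called genes and dotted lines at -0.6 and 0.6. Called genes were Tjp1, Cdh2 and Vcl in astrocytes and Vcl, Cdh2 and Ctnnb1 in OPCs over MCAO contra.

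OPCs had higher levels of Vcl, Cdh2 and Ctnnb1 in the ipsilateral than in the contralateral hemisphere, while their Tjp1 and Ctnna1 did not pass the test. Vcl in OPCs was 38.2 and 43.3 CPM in Sham, 24.9 and 35.8 in MCAO contra, and 68.0 and 78.1 in MCAO ipsi. Cdh2 was 347 and 315 CPM in Sham, 322 and 309 in MCAO contra, and 464 and 572 in MCAO ipsi. Ctnnb1 was 40.9 and 35.5 CPM in Sham, 37.3 and 43.3 in MCAO contra, and 63.2 and 87.6 in MCAO ipsi. For all 3 genes both ipsilateral libraries lay above the other 4. Ctnna1 did so too, at 24.6 and 23.6 CPM in Sham, 23.6 and 32.0 in MCAO contra, and 40.1 and 50.8 in MCAO ipsi. Its log2 fold change over MCAO contra was 0.65 ± 0.30 in edgeR (adjusted p = 0.148). All these values are sums over all OPC nuclei, which were not divided into states. More nuclei in a state with a high level and more RNA per nucleus thus cannot be told apart.

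Over MCAO contra the log2 fold changes were 1.21 ± 0.26 for Vcl (adjusted p = 0.00160), 0.61 ± 0.14 for Cdh2 (adjusted p = 0.00263) and 0.84 ± 0.25 for Ctnnb1 (adjusted p = 0.0194). These 3 of the 5 tested genes were called higher, where 6.95% of the 8840 genes tested were called higher, 5.92% lower and 12.9% in either direction. Cdh2 was also reported by the study as raised in infarction-restricted OPCs of these samples, so its direction is not independent evidence. The call of Ctnnb1 was lost with free RNA subtracted (0.94, adjusted p = 0.153) and with a purity of 0.6 (0.85, adjusted p = 0.0822). DESeq2 called none of the 3, with adjusted p-values of 0.0529 for Cdh2, 0.191 for Vcl and 0.556 for Ctnnb1. The share of all genes that DESeq2 called is not given here. With the rat pool as a block, Cdh2 lay just below the fold limit (0.595, adjusted p = 0.000862) and Vcl and Ctnnb1 stayed called. Without mMCAO contra only Cdh2 was called (0.65, adjusted p = 0.0343). Only Vcl was called without sMCAO contra (1.43, adjusted p = 0.00241) and without sMCAO ipsi (1.14, adjusted p = 0.00672), and without either Sham library Cdh2 lay at 0.59, below the fold limit.

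Over Sham edgeR called 0 of the 5 genes, beside 14.7% of all genes (7.08% higher and 7.6% lower), and DESeq2 called 0 of the 5. At an unadjusted p under 0.05 there were 3 of the 5 and 2427 of all genes. Cdh2 had an adjusted p of 0.0227 but a log2 fold change of 0.50 ± 0.15, under the fold limit, and Vcl had 0.72 ± 0.31 (adjusted p = 0.117) and Ctnnb1 0.84 ± 0.31 (adjusted p = 0.0626). Without mMCAO ipsi, Cdh2 (0.62, adjusted p = 0.00334) and Ctnnb1 (1.02, adjusted p = 0.0170) were called over Sham. Tjp1 was 409 and 359 CPM in Sham, 335 and 339 in MCAO contra, and 401 and 414 in MCAO ipsi, with a log2 fold change over Sham of -0.07 ± 0.15 (adjusted p = 0.817). The rise of Tjp1 from Sham to MCAO ipsi was larger in astrocytes than in OPCs by 1.17 ± 0.26 (adjusted p = 0.0103). From MCAO contra this difference was 0.77 ± 0.24 (adjusted p = 0.0951) and was not called. Between MCAO contra and Sham 0 of the 5 genes were called in OPCs, beside 0.26% of all genes (0.0226% higher and 0.238% lower), with 0 of the 5 and 800 of all genes at an unadjusted p under 0.05, and DESeq2 called 0 of the 5. OPC sums held more neuron marker RNA than the other glia, at 1634 to 3196 CPM. The estimate of free RNA was 23.4% to 42.9%, and in Sham L it was 42.9% beside 21.8% in oligodendrocytes. It counts every neuron marker UMI as free RNA, including any that OPCs make themselves. The part of these was not tested.

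In oligodendrocytes, Cldn14 was higher in the stroke state than in the other nuclei. Claudin 14 is a claudin best known from the inner ear, where its loss causes deafness. Oligodendrocytes held 17 and 13 Cldn14 UMIs in Sham, 39 and 14 in MCAO contra, and 43 and 159 in MCAO ipsi. These are 21.1 and 52.2 CPM in Sham, 24.2 and 14.4 in MCAO contra, and 47.7 and 89.7 in MCAO ipsi. The severe ipsilateral library was the highest, and mMCAO ipsi lay below Sham R. The Sham libraries differed by a ratio of 2.48 (1.11 to 5.41), and sMCAO ipsi was 1.88 times mMCAO ipsi (1.34 to 2.70).

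The promoter of Cldn14 is shown because Cldn14 carries the oligodendrocyte result. It covers chr11:46711739-46711988 on the minus strand of GRCr8, holds 52.4% G and C, and is written as above.
Cldn14: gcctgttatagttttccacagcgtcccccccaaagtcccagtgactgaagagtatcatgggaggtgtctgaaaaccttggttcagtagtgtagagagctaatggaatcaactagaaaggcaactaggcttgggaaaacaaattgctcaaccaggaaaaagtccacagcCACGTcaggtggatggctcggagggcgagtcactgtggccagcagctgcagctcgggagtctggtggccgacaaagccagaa
The capitals mark CACGT, the reverse strand of the hypoxia response motif ACGTG, at -82 to -78, and none of the other 4 motifs was found. This motif was present in 16.9% of all promoters.

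Oligodendrocytes were divided by a stroke-state list that the study chose on these same samples, among them Stat3, Il6st and Adamts1. Stroke-state nuclei numbered 15 and 10 in Sham, 46 and 21 in MCAO contra, and 111 and 361 in MCAO ipsi. In mMCAO ipsi, Cldn14 was 183 CPM in stroke-state nuclei (19 UMIs) and 30.1 CPM in the other oligodendrocytes. In sMCAO ipsi it was 202 CPM in stroke-state nuclei (106 UMIs) and 42.5 CPM in the others. In mMCAO contra it was 74.3 CPM (3 UMIs) and 22.9 CPM, and in sMCAO contra the 21 stroke-state nuclei held no Cldn14 UMI, which allowed up to 199 CPM, beside 14.7 CPM in the others.

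The stroke-state to other ratio of Cldn14 was 6.09 (3.16 to 11.6) in mMCAO ipsi, 4.76 (3.39 to 6.75) in sMCAO ipsi and 3.24 (0.639 to 10.3) in mMCAO contra. With library as a block over these 4 MCAO libraries, the log2 fold change was 2.18 ± 0.31, which is 4.55-fold, with an adjusted p of 2.4e-10. In this fit the spread was in effect shared over genes. The p-value is thus not a measure of the spread of Cldn14 alone between libraries. Cldn14 was the 1 of the 6 tested junction genes that was called, where 2.38% of the 7358 genes tested were called higher, 2.56% lower and 4.93% in either direction. DESeq2 gave an adjusted p of 0.00197, and leaving out any of the 4 libraries kept the call. Cldn14 is in no list that defined the states, but the study itself grouped Cldn14 with genes of this state in these samples, so the difference is not independent evidence of its direction.

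Depth differed between the states, with a median of 857 UMIs in stroke-state and 684.5 in the other nuclei of mMCAO ipsi, and 1320 and 1060 in sMCAO ipsi. A Cldn14 UMI was found in 11.7% of stroke-state nuclei of mMCAO ipsi (95% exact binomial interval 6.39% to 19.2%) and in 18.6% of those of sMCAO ipsi (14.7% to 23.0%), beside 1.76% and 4.39% of the other oligodendrocytes. At 500 UMIs per nucleus the shares were 5.41% and 6.93% beside 1.08% and 1.66%. Neurons, which should lack the gene, had a Cldn14 UMI in 0.0580% to 0.261% of nuclei at medians of 2430.5 to 6877.5 UMIs.

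Within the other oligodendrocytes alone, Cldn14 was 21.4 and 53.7 CPM in Sham, 22.9 and 14.7 in MCAO contra, and 30.1 and 42.5 in MCAO ipsi. The log2 fold change over Sham was 0.23 ± 0.45 (adjusted p = 0.833) and over MCAO contra 0.91 ± 0.40 (adjusted p = 0.406), so that 0 of the 6 genes were called there, beside 5.2% of the 8938 genes tested over Sham and 0% over MCAO contra. At an unadjusted p under 0.05 the other oligodendrocytes held 0 of the 6 and 1806 of all genes over Sham, and Cldn14 and Ctnna1 and 1059 of all genes over MCAO contra.

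Across all oligodendrocytes the Cldn14 log2 fold change was 1.79 ± 0.42 over MCAO contra (adjusted p = 0.129) and 1.19 ± 0.48 over Sham (adjusted p = 0.189). edgeR and DESeq2 called 0 of the 6 junction genes in oligodendrocytes over Sham and 0 of the 6 over MCAO contra. Of the 9188 genes tested, edgeR called 5.46% over Sham (1.43% higher and 4.04% lower) and 0.0109% over MCAO contra. Cldn14 and Ctnna1 were at an unadjusted p under 0.05 in both comparisons, as were 1938 of all genes over Sham and 1330 over MCAO contra. Without mMCAO ipsi, Cldn14 was called at 2.09 over MCAO contra (adjusted p = 7.9e-12) and 1.600 over Sham (adjusted p = 6.4e-06), and Vcl at 0.77 (adjusted p = 0.00901) and 0.81 (adjusted p = 0.0270), so both calls then rested on 1 severe library. Without a filter on low counts Cldn14 was called too (1.78, adjusted p = 3.0e-07, and 1.21, adjusted p = 0.00659). Between MCAO contra and Sham 0 of the 6 were called, beside 0% of all genes, with 0 of the 6 and 836 of all genes at an unadjusted p under 0.05, and DESeq2 called 0 of the 6.

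The scaffold, the cadherin and alpha-catenin did not pass the test in oligodendrocytes. Tjp1 was 722 and 739 CPM in Sham, 781 and 698 in MCAO contra, and 869 and 842 in MCAO ipsi, both ipsilateral libraries above the other 4 by a log2 fold change of 0.22 ± 0.13 over Sham (adjusted p = 0.375). Cdh2 was 184 and 120 CPM in Sham, 172 and 175 in MCAO contra, and 132 and 165 in MCAO ipsi, with overlapping groups. The change of Cdh2 from Sham to MCAO ipsi was larger in astrocytes than in oligodendrocytes by 1.31 ± 0.31 (adjusted p = 0.00278). For Ctnna1 the values were 153 and 120 CPM in Sham, 164 and 125 in MCAO contra, and 190 and 218 in MCAO ipsi, with a log2 fold change over Sham of 0.52 ± 0.20 (adjusted p = 0.177). Vcl and Ctnnb1 had log2 fold changes over Sham of 0.54 ± 0.37 (adjusted p = 0.469) and 0.67 ± 0.37 (adjusted p = 0.357).

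**Figure D4:**
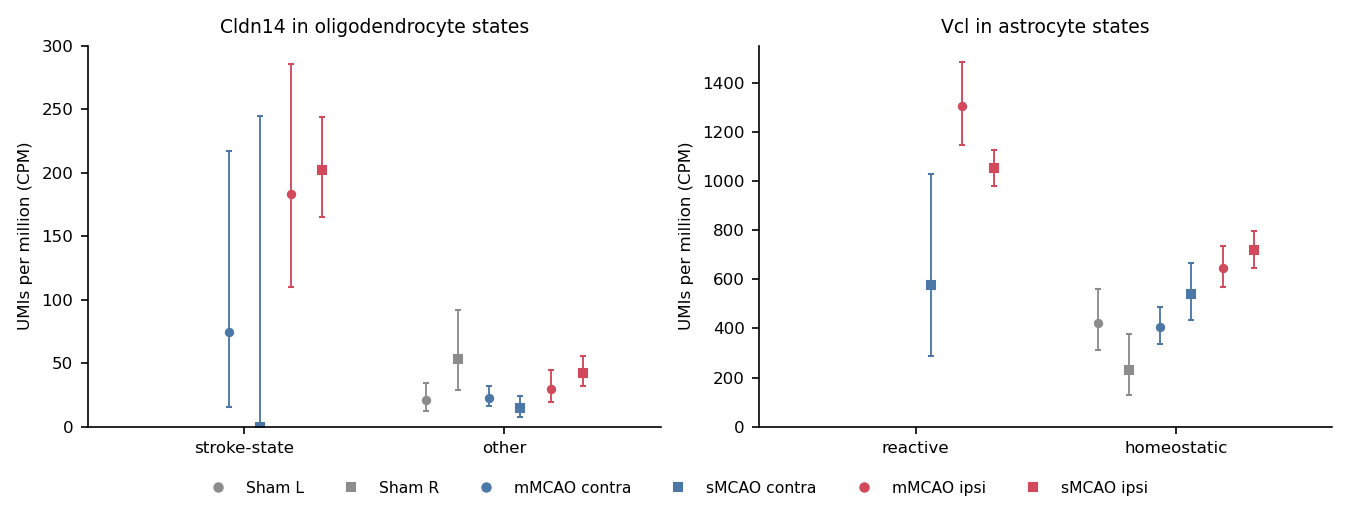
Levels in CPM, by library, of Cldn14 in stroke-state and other oligodendrocytes (left) and of Vcl in reactive and homeostatic astrocytes (right), with exact 95% Poisson intervals, for libraries with at least 20 nuclei. Cldn14 reached 183 and 202 CPM in stroke-state nuclei of the ipsilateral libraries, above 30.1 and 42.5 CPM in the other oligodendrocytes.

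In fibroblasts, which build the extracellular matrix of the meninges and of larger vessels, 11 nuclei in each Sham library were too few for a comparison with Sham. Tjp1 in fibroblasts was 688 and 551 CPM in MCAO contra and 776 and 866 in MCAO ipsi. Cdh5 was 59.8 and 68.8 CPM in MCAO contra, from 4 UMIs each, and 135 CPM (16 UMIs) and 206 CPM (77 UMIs) in MCAO ipsi. Both genes were higher in both ipsilateral than in both contralateral libraries. Vcl lay between 207 and 239 CPM and Ctnna1 between 253 and 281 CPM. Ctnnb1 was 224 and 138 CPM in MCAO contra and 42.2 and 118 in MCAO ipsi.

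A fit of the 4 MCAO libraries, chosen after the data were seen, gave a log2 fold change of 1.48 ± 0.47 for Cdh5 over MCAO contra (adjusted p = 0.834) and 0.42 ± 0.30 for Tjp1 (adjusted p = 0.898). edgeR called 0 of the 5 tested genes, with Cdh5 at an unadjusted p of 0.0145 from this fit across all genes in edgeR, and 0% of 2519 genes, with 134 at an unadjusted p under 0.05. With nuclei of mixed markers kept, all 6 libraries could be fitted, and Tjp1 over Sham had a log2 fold change of 2.25 ± 0.48 (adjusted p = 0.0608), beside 0.252% of the 2778 genes tested being called. In the same fit Tjp1 differed by 1.89 ± 0.50 between MCAO contra and Sham (adjusted p = 0.714), beside 0% of all genes (190 at an unadjusted p under 0.05), and by 0.37 ± 0.31 between MCAO ipsi and MCAO contra (adjusted p = 0.894), while Cdh5 over MCAO contra had 1.81 ± 0.51 (adjusted p = 0.281), beside 0.072%.

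Cdh5 in fibroblasts was set against endothelial markers in the same nuclei. Fibroblast sums of the MCAO libraries held 59.8 to 227 CPM of the 14 endothelial markers, beside 15234 to 18993 CPM in endothelium. Over all 6 libraries, 0 to 10 of these 14 markers were detected per library, and Emcn, Mecom and Tie1 were at 0 in every library. In the fibroblasts without any endothelial marker UMI, Cdh5 was 225 CPM in sMCAO ipsi (53 UMIs in 137 nuclei, interval 169 to 295) and 105 CPM in mMCAO ipsi (10 UMIs in 103 nuclei, 50.5 to 194). It was 62.1 CPM in mMCAO contra and 87.6 CPM in sMCAO contra, from 4 UMIs each. Mural nuclei without an endothelial UMI held no Cdh5 UMI, in 34 nuclei of sMCAO ipsi, 10 of mMCAO ipsi and 7 of mMCAO contra. Myeloid nuclei, a class that should lack Cdh5, held 0 to 12.0 CPM. A Cdh5 UMI was found in 5.33% and 6.56% of contralateral and 10.2% and 27.9% of ipsilateral fibroblasts. At 500 UMIs per nucleus these shares were 5.33% and 0%, and 7.87% and 11.2%. In myeloid nuclei of the same libraries at most 0.926% had one. Fibroblast sums also held 2910 to 3891 CPM over the 16 astrocyte markers, with 4 to 13 of the 16 detected per library and Sox9 at 0 in every library. The part of these markers in the Tjp1 level was not tested.

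**Figure D5:**
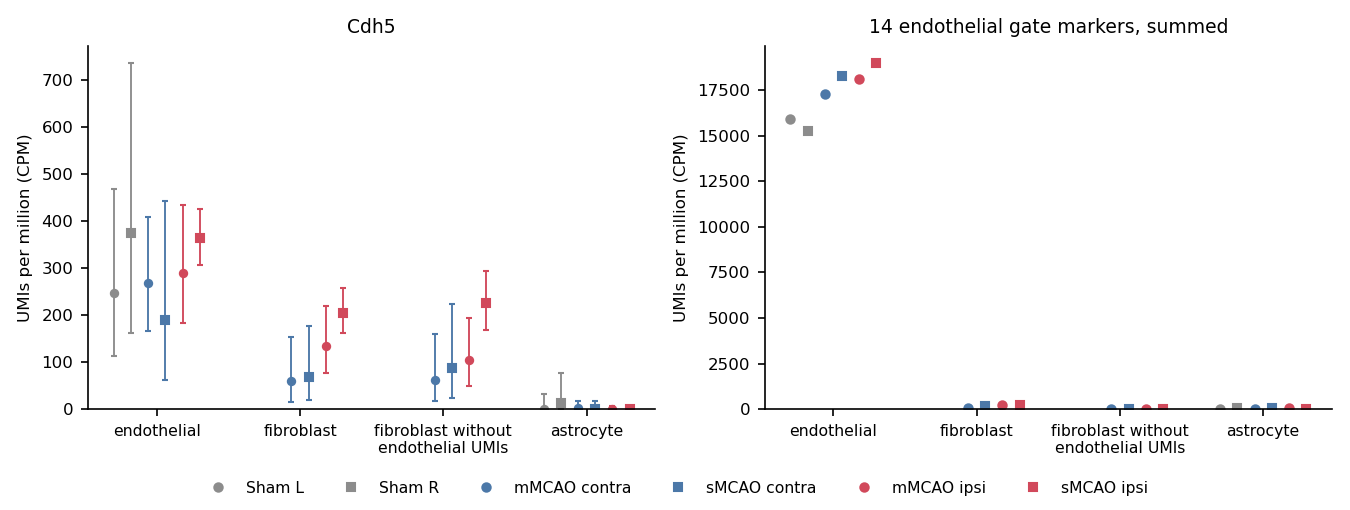
Cdh5 levels in CPM with exact 95% Poisson intervals (left) and the summed level of the 14 endothelial markers in CPM (right), by library, in endothelial nuclei, fibroblasts, fibroblasts without any endothelial marker UMI, and astrocytes. In sMCAO ipsi fibroblasts Cdh5 was 206 CPM in all nuclei and 225 CPM in those without endothelial UMIs.

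Other genes of the same junctions were followed as 2 lists, 29 tight junction genes and 23 adherens junction genes, of which 28 and 22 matched a symbol. Of the 16 adherens junction genes tested in astrocytes over Sham, 2 rose and 1 fell, near the 13.2% of all genes called, with a median log2 fold change of 0.22 beside 0.03 for all genes. Actn1, the actin crosslinker alpha-actinin 1, rose by 1.92 ± 0.53 (adjusted p = 0.0291). Cdh10, a cadherin, decreased by 0.87 (adjusted p = 0.00967), from 1146 and 962 CPM in Sham to 634 and 554 in MCAO ipsi. The study named Cdh10 among the homeostatic astrocyte genes that were fainter in reactive astrocytes of these samples, so its direction is not independent evidence. Over MCAO contra, 2 of the 16 adherens junction genes rose and 1 fell, beside 7.13% of all genes called higher and 5.19% lower. Actn4, alpha-actinin 4, rose by 1.48 ± 0.36 (adjusted p = 0.0149) there and Amotl1, an angiomotin-like scaffold, from the tight junction list, by 1.23 ± 0.31 (adjusted p = 0.0176). Actn1 was 51.3 and 55.0 CPM in Sham, 63.8 and 55.0 in MCAO contra, and 121 and 278 in MCAO ipsi, so its rise was larger in the severe library.

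Between astrocyte states, 3 of the 16 tested adherens junction genes were higher and 2 lower in reactive nuclei, beside 5.06% of all genes called higher and 4.79% lower. Actn1 was higher by 2.34 ± 0.27 (adjusted p = 8.6e-07), whereas Cldn10, a claudin picked after its values were seen, had a log2 fold change of -1.54 ± 0.31 (adjusted p = 0.00118) and Cdh10 of -1.26 ± 0.20 (adjusted p = 8.1e-05). The direction of Cdh10 was known from the study here too.

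In oligodendrocytes over Sham, 1 of the 14 tested tight junction genes rose and 1 fell, and 3 of the 21 adherens junction genes fell, beside 1.43% of all genes called higher and 4.04% lower. The medians were 0.04 and -0.19 beside 0.03 for all genes. Cldn11, the claudin of myelin, rose by 0.94 ± 0.21 (adjusted p = 0.0382), from 396 and 422 CPM in Sham to 655 and 916 in MCAO ipsi, while MCAO contra stood at 531 and 705. Within the MCAO libraries Cldn11 had a log2 fold change of -0.80 ± 0.20 in the stroke state (adjusted p = 0.00367), the opposite sign to Cldn14. The genes that fell were Magi1 (-0.88), Ctnnd2 (-1.64), Ctnna2 (-0.79) and Cdh13 (-1.08), of which Ctnna2 and Ctnnd2 are catenins of neurons. Neuron markers in oligodendrocytes summed to 1626 and 1530 CPM in Sham and 767 and 210 in MCAO ipsi, and their part in these changes was not tested. Over MCAO contra none of the 14 and none of the 21 were called, beside 0.0109% of all genes.

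In OPCs over Sham, of the 19 tested adherens junction genes Lima1 rose (0.97 ± 0.24, adjusted p = 0.00540) and Afdn, the junction scaffold afadin, fell by 0.64 (adjusted p = 0.00382), beside 14.7% of all genes called. Over MCAO contra Patj, a scaffold, was the only gene called of the 15 tight and 19 adherens junction genes, at -0.98 ± 0.31 (adjusted p = 0.0282), beside 12.9% of all genes called. In endothelium over Sham, 0 of the 10 tight junction genes were called, beside 2.13% of all genes, and of the 9 adherens junction genes Cdh13, T-cadherin, rose by 2.53 ± 0.62 (adjusted p = 0.0459) and Ctnna2 had a log2 fold change of -2.19 ± 0.50 (adjusted p = 0.0387). Neuron markers in endothelial nuclei ranged from 151 to 1168 CPM over the libraries.

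Over 45 sums of at least 20 nuclei each (9 classes in up to 6 libraries), the genes whose log2(CPM + 1) was most like that of Cldn14, among 14414 genes, were Klk6 (Pearson r = 0.85), ENSRNOG00000070586 (0.84) and ENSRNOG00000024506 (0.83), where the files pair no symbol with the last 2. For Tjp1 they were Sptbn1 (0.82), Arhgef12 (0.78) and Heg1 (0.75). The sums share libraries and depth, so these values describe likeness over classes only.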

How the data were processed

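Raw UMI counts of 6 libraries were used as the authors deposited them. They had been made from 10x single-nucleus reads with Cell Ranger 7.0.0 on the rat build mRatBN7.2, intronic reads included. The study's removal of free RNA and doublets is not part of these counts. Nuclei with at least 500 UMIs, 250 to 5000 genes and at most 5% mitochondrial UMIs were kept, as in the study's methods.

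A nucleus entered a class with at least 3 UMIs of at least 2 markers, 25% of the typical marker share and at least 50% of its marker signal in that class (130 of 135 marker symbols matched). No doublet caller was run, and 261 to 509 nuclei of mixed markers per library were left out. The last limit was lowered from 0.6 after nuclei were counted and before values of the junction genes were read, since 0.6 left under 20 endothelial nuclei in 2 libraries. Reactive and stroke-state nuclei had at least 2 UMIs and 20 per 10000 UMIs of their lists, homeostatic nuclei at least 2 and 40 per 10000.

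The UMIs of all nuclei of a class in a library were added up, and classes with at least 20 nuclei in each library were tested with edgeR 4.0.16 (quasi-likelihood, TMM, filterByExpr, R 4.3.3) over all 6 libraries. States were compared with library as a block. Adjusted p-values are Benjamini-Hochberg values over all genes tested. All shares of genes called are those of edgeR. The shares that DESeq2 called are not given, so its counts of junction genes cannot be set against a share. Alternatives were DESeq2 1.42.0, other scaling, no filter, other gates, subtraction of free RNA, single libraries left out and the rat pool as a block. Free RNA was estimated as the neuron marker share of a class sum relative to that of all nuclei of the library. The fits of fibroblasts, of homeostatic astrocytes and other oligodendrocytes alone, and of differences between classes were added after the data were seen. The junction genes and lists were chosen with earlier results of these data known. All members that passed the filter were named in every class tested, with at most 5 other junction genes per class called in an ipsilateral comparison, by smallest adjusted p, and the 3 genes most like Cldn14 and Tjp1.

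Contralateral and ipsilateral libraries of one number came from the same rats by the labels, and their deviations correlated by -0.0188 to 0.0541 over genes. The test was first checked on simulated data. Intervals cover counting error only. One gene of the tight junction list, and the counts that rest on it, are not reported here.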

Additional observations from a re-analysis of the deposited data

Results flagged for a closer look

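Changes that differed between cell classes, by a test of the difference itself in one fit over both classes with library as a block, were found for 3 genes. The change of Vcl from MCAO contra to MCAO ipsi was lower in endothelium than in astrocytes by a log2 difference of -1.82 ± 0.47 (adjusted p = 0.00788 in edgeR, 2.21% of genes called), and lower than in OPCs by -2.06 ± 0.51 (adjusted p = 0.018, 0.451% called). From Sham these Vcl differences were -1.75 ± 0.59 (adjusted p = 0.0937) and -0.80 ± 0.62 (adjusted p = 0.848), and neither was called. The change of Cdh2 was higher in astrocytes than in oligodendrocytes, by 1.31 ± 0.31 from Sham to MCAO ipsi (adjusted p = 0.00278, 4.02% called) and by 1.08 ± 0.26 from MCAO contra (adjusted p = 0.0051, 3.15% called). The change of Tjp1 from Sham was higher in astrocytes than in OPCs by 1.17 ± 0.26 (adjusted p = 0.0103, 2.25% called). From MCAO contra this difference was 0.77 ± 0.24 (adjusted p = 0.0951) and was not called. Endothelial sums rest on 23 nuclei in the smallest library. In the fits with endothelium the spread was in effect shared over genes, as between oligodendrocyte states. For these differences no alternatives and no fits without single libraries were run.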

How the results depend on the processing

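Of 1062 values of single genes under the alternatives, 1011 kept their side of the threshold, 34 lost a call, 17 gained one and 53 changed sign, none of them called. Most of the 1062 values belong to genes not called at first, which had no call to lose, so 1011 is not a measure of how stable the calls were. The 34 losses all fall on the few calls of the main fits, most of them in OPCs over MCAO contra. In astrocytes 3 genes were called over Sham and 3 over MCAO contra, and 0 to 3 and 0 to 4 when single libraries were left out. In oligodendrocytes 0 were called in both comparisons, 1 in each without the filter on low counts and 0 to 2 in each when single libraries were left out. In OPCs over Sham 0 were called, 2 with the looser gate, 1 with mixed nuclei kept, 1 with a purity of 0.6, 1 with free RNA subtracted and 0 to 2 without single libraries. In OPCs over MCAO contra 3 were called, 0 by DESeq2, 0 with the stricter gate, 1 with the looser gate, 1 with mixed nuclei kept and 1 to 3 without single libraries. Between astrocyte states 0 were called, 1 with the stricter and 1 with the looser limits and 0 to 1 without single libraries. Between oligodendrocyte states Cldn14 was called under every alternative run. The cause of these changes was not tested. With the rat pool as a replicate block, 3 genes were called in astrocytes and 2 in OPCs over MCAO contra, and no call other than that of Cdh2 in OPCs changed. The stricter gate and a purity of 0.6 left too few endothelial nuclei for a test. Endothelial and fibroblast values rest on few nuclei.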
